A study of Mus musculus with 6 samples.

Results

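The semaphorin signalling genes of mouse osteoclasts were examined: the semaphorins of classes 3 to 7, the plexins and the neuropilins. Members were taken by symbol from the deposited count table, which gave 31 genes of 23204, namely 20 semaphorins, 9 plexins and 2 neuropilins. Of these, 26 reached at least 1 CPM (counts scaled to library size) in at least 3 libraries and were tested, and the other 5, all semaphorins, are given below as counts. Osteoclasts, the multinucleated cells that resorb bone, had been grown from C57BL/6 bone marrow, first 2 days in the growth factor M-CSF and then in M-CSF plus RANKL, under which precursors fuse into osteoclasts. The 3 libraries labelled mutant carry Tet2Rank–/–; Tet3aRank+/– in their titles and Tet2KOTet3Het in their column names, read here as deletion of *Tet2* on both alleles and of *Tet3* on 1 allele. The other 3 libraries were wild type. Each genotype has samples of both sexes, but the columns are not tied to a sex. The meaning of Rank and of the a in Tet3a, the cells that the deletion reaches and the age of the mice are not given in the labels, which also do not say whether the libraries came from separate animals or cultures, so p-values measure only the spread between these libraries. TET2 and TET3 oxidise methylated cytosine in DNA, and no methylation data were used.

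Column names begin with a number, which is used here as the library's name. Libraries 2, 3 and 5 were labelled mutant and libraries 1, 4 and 6 were wild type, with totals between 8794973 and 14267135 counts. The column names of libraries 5 and 6 carry a second number and the others do not; this is called the column-name split, and each side holds both genotypes. *Tet2* was at 51.9 ± 6.38 CPM in libraries labelled mutant and 77.2 ± 4.86 CPM in wild type (SD, n = 3 each; log2 fold change -0.57, edgeR adjusted p = 0.0900), and *Tet3* was at 153 ± 11.6 CPM in libraries labelled mutant and 131 ± 12.4 CPM in wild type. *Tet3* was thus not lower, and genotypes are written as labelled; a whole-gene count also holds exons outside a deleted part. All 10 osteoclast markers examined had counts in every library. Their summed level was 2983, 8457 and 12377 CPM in libraries 2, 3 and 5, labelled mutant, against 18364, 15086 and 39553 CPM in wild-type libraries 1, 4 and 6, and 6 of the 10 did not overlap between the genotypes, all lower in the libraries labelled mutant (17.1% of all genes tested were lower without overlap). Of 8 macrophage markers, 6 did not overlap and were higher there (10.1% of all genes tested), with sums of 8366, 7915 and 8635 CPM against 6622, 5290 and 5570 CPM. Libraries 1 to 4 also held RNA of the pituitary hormone gene *Gh*, at 11103, 5225 and 0.149 CPM in libraries 2, 3 and 5, against 2087, 14234 and 0 CPM in libraries 1, 4 and 6 (*Gh* was chosen after its values were seen).

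Semaphorins are ligands built around a sema domain, secreted in class 3 and held at the cell surface in classes 4 to 7. Plexins are their receptors and act on small GTPases through a domain inside the cell, and neuropilins are co-receptors that bind class 3 semaphorins and VEGF. In mouse bone, SEMA4D made by osteoclasts acts through plexin B1 on osteoblasts and restrains bone formation, SEMA3A acts through neuropilin 1 on osteoclast precursors and restrains their differentiation, and SEMA6D acts through plexin A1 with TREM2 and promotes it.

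Levels between genes were compared as CPM per kb of annotated exon. The most abundant were *Plxnd1*, which encodes the receptor of SEMA3E, *Plxnb2*, a receptor of class 4 semaphorins, *Nrp2*, the co-receptor of SEMA3F, and *Sema4d*. Mean levels per kb were 74.0 ± 18.6 in libraries labelled mutant and 137 ± 42.7 in wild type for *Plxnd1*, and 97.5 ± 1.09 in libraries labelled mutant and 106 ± 2.18 in wild type for *Plxnb2* (SD, n = 3 each). They were 60.7 ± 17.7 in libraries labelled mutant and 115.9 ± 25.96 in wild type for *Nrp2*, and 50.5 ± 6.12 in libraries labelled mutant and 88.5 ± 19.1 in wild type for *Sema4d*. Among wild-type libraries each of these 4 genes overlapped its neighbour in the order. Among libraries labelled mutant *Plxnb2* lay above the other 3, which overlapped. *Plxna1* followed by mean, at 47.8 ± 2.83 in libraries labelled mutant and 37.2 ± 5.62 CPM per kb in wild type. In libraries labelled mutant it overlapped *Sema4d*. Next came *Plxnc1* at 25.2 ± 5.16 in libraries labelled mutant and 15.8 ± 7.49 in wild type. *Sema7a* (13.5 ± 8.61 in libraries labelled mutant and 18.98 ± 12.9 in wild type) and *Sema4a* (16.0 ± 0.332 in libraries labelled mutant and 12.4 ± 2.95 in wild type) overlapped each other. *Sema4d* thus had the highest level per kb of the 20 semaphorins in each of the 6 libraries. With the longest transcript in place of all exons, *Nrp2* came first with a mean over libraries of 155.5 CPM per kb. *Nrp1*, at 34.1, then lay above *Plxnc1*, at 23.4.

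**Figure D1:**
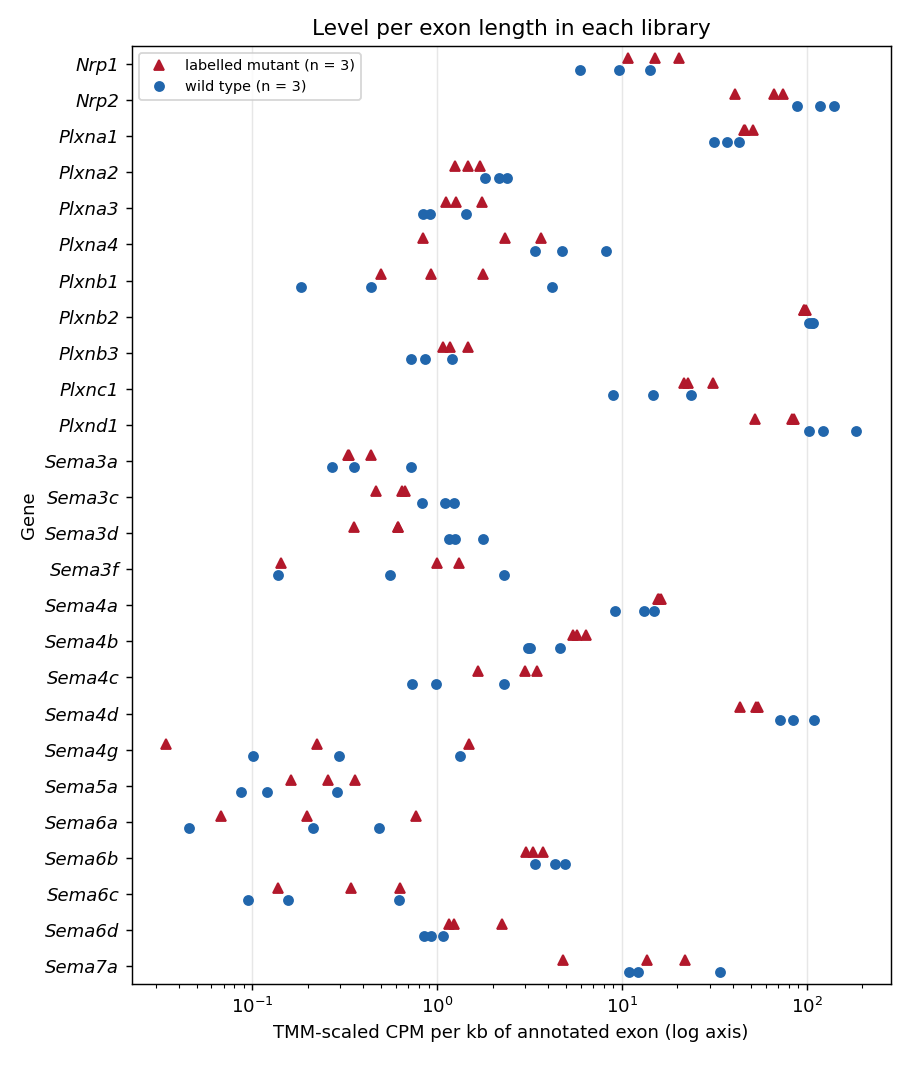
Level of the 26 tested genes in each library, in TMM-scaled CPM per kb of annotated exon on a log axis; red triangles are the 3 libraries labelled mutant, drawn above the blue circles of the 3 wild-type libraries of the same gene. *Plxnd1*, *Plxnb2*, *Nrp2*, *Sema4d* and *Plxna1* have the 5 highest means, and *Plxnb1*, *Sema3f*, *Sema4g* and *Sema6a* scatter widely within a genotype.

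The comparison of genotypes asks which of these genes differ between osteoclast libraries labelled mutant and wild-type ones. With genotype alone in the model, 0 of the 26 tested members passed an adjusted p of 0.05 (edgeR quasi-likelihood test, Benjamini-Hochberg over 13646 genes), where 0.0733% of all genes tested passed (0.0513% higher and 0.022% lower). At an unadjusted p under 0.05 there were 8 members, 6 lower and 2 higher, against 20.0% of all genes tested (12.6% lower and 7.39% higher). With the column-name split as a term, 4 members fell and 0 rose, against 9.53% of all genes in either direction, 6.15% lower and 3.39% higher. The 4 were *Sema4d*, *Sema3d*, *Nrp2* and *Plxnd1*. DESeq2 with genotype alone also called these 4 lower, against 5.62% of all genes, and 1 member higher, *Sema4b*, against 4.87% (10.5% in either direction). The libraries of the genotypes did not overlap for 11 of 26 members, or 42.3%, against 27.2% of all genes tested; 7 were lower (17.1% of all genes) and 4 higher (10.1% of all genes). Over the members tested 13 had a log2 fold change above 0 and 13 below, with a median of -0.06 beside -0.03 over all genes tested. The ratio of genotypes had the same sign on both sides of the column-name split for 23 of the 26 members (73.0% of all genes tested). *Plxnb1*, *Sema3f* and *Sema4g* differed in sign. Libraries 5 and 6 are 1 library of each genotype. A test of the interaction therefore has little power and cannot show that the sides agree. The interaction of genotype with the split passed for 0 members in edgeR, where 0.0% of all genes passed, and 1 member, *Sema4a*, had an unadjusted p under 0.05 (0.938% of all genes).

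**Figure D2:**
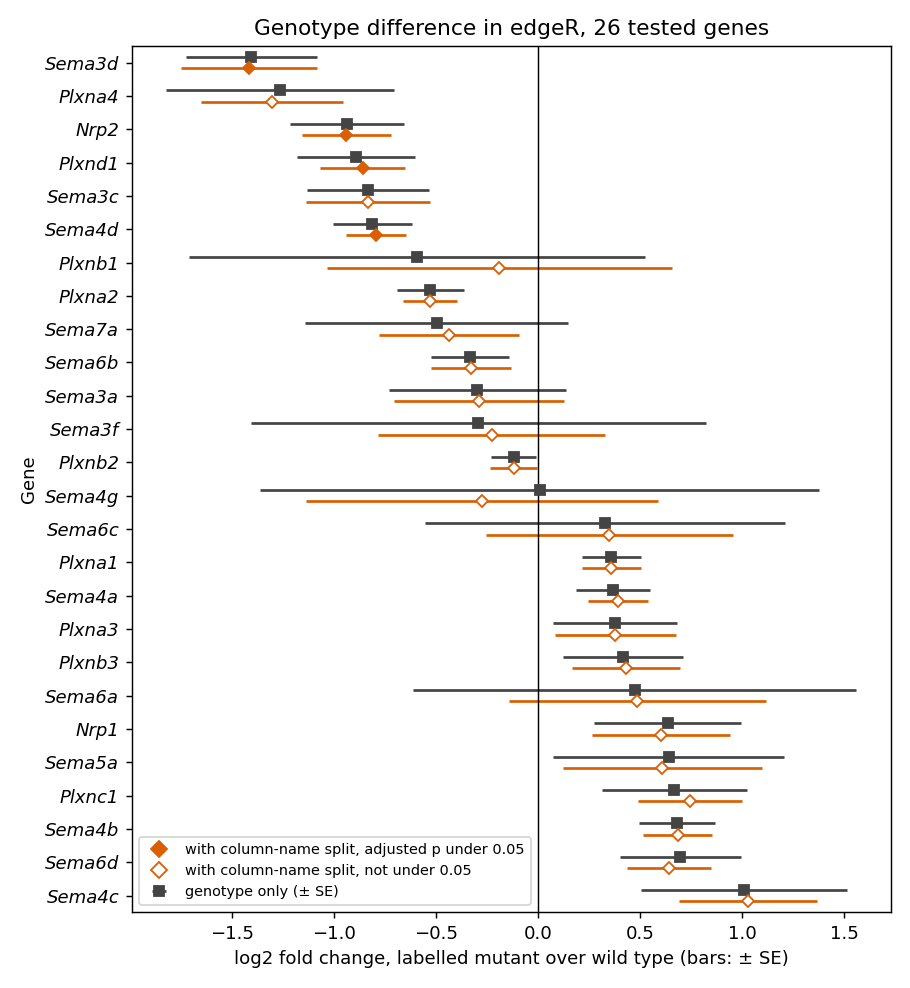
Log2 fold change of the libraries labelled mutant over wild type with its SE for each tested gene, with genotype alone (grey squares) and with the column-name split as a term (orange diamonds, filled where the adjusted p is under 0.05). *Sema3d*, *Nrp2*, *Plxnd1* and *Sema4d* carry filled diamonds, all to the left of 0.

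Among the class 4 semaphorins, which are membrane ligands, *Sema4d* fell in the fit with the split (chromosome 13, 51685529 to 51793747, mm10). It had 409, 334 and 420 CPM in libraries 2, 3 and 5, labelled mutant, against 644, 554 and 840.5 CPM in wild-type libraries 1, 4 and 6. Every library labelled mutant lay below every wild-type one, and the mean was 57.0% of wild type. The log2 fold change was -0.81 (SE 0.193, edgeR adjusted p = 0.102) with genotype alone and -0.79 (SE 0.147, edgeR adjusted p = 0.0270) with the split, and adjusted p-values over all alternatives lay between 0.00270 and 0.264. Earlier results of these data had already given *Sema4d* as lower, so this is no independent finding. *Sema4a*, a ligand of plexin D1 and of plexin B receptors, had higher values in libraries labelled mutant. It had 88.4, 85.0 and 85.6 CPM in libraries 2, 3 and 5, labelled mutant, against 80.7, 70.8 and 49.5 CPM in wild-type libraries 1, 4 and 6. The groups did not overlap, but the gap to library 1 was small and library 6 lay lowest (log2 fold change 0.37, SE 0.181, edgeR adjusted p = 0.330). *Sema4b* had 32.2, 36.1 and 30.7 CPM in libraries 2, 3 and 5, against 17.9, 26.03 and 17.6 CPM in libraries 1, 4 and 6. All libraries labelled mutant were higher, and the log2 fold change was 0.68 (SE 0.185, edgeR adjusted p = 0.126, and 0.0531 with the split). DESeq2 called it (adjusted p = 0.0230), and over all alternatives the adjusted p lay between 0.0230 and 0.355. *Sema4c*, a ligand of plexin B2, stood at 12.5 ± 4.31 CPM in libraries labelled mutant and 6.16 ± 3.88 CPM in wild type (SD, n = 3 each), with overlapping libraries and an edgeR adjusted p of 0.338. Its exons share 7.27% of their length with an opposite-strand gene, *D430040D24Rik*, and whether their reads were kept apart is not given in the sources used here.

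The class 3 semaphorins, which are secreted and most of which bind neuropilins, were expressed at low levels. *Sema3d* (chromosome 5, 12383385 to 12588948) had 75, 52 and 41 counts in libraries 2, 3 and 5, labelled mutant, against 86, 139 and 190 counts in wild-type libraries 1, 4 and 6. Scaled, these were 5.25, 5.29 and 3.05 CPM against 10.0, 10.7 and 15.2 CPM, or 37.8% of wild type, with no overlap. It fell in the fit with the split (log2 fold change -1.41, SE 0.333, edgeR adjusted p = 0.0474) and stood at -1.40 (SE 0.322, edgeR adjusted p = 0.0975) with genotype alone; over all alternatives the adjusted p lay between 0.00566 and 0.302. *Sema3c*, which signals through neuropilins and plexin D1, was also lower, at 4.76, 3.36 and 4.61 CPM in libraries 2, 3 and 5, against 5.94, 8.81 and 7.92 CPM in libraries 1, 4 and 6. Its groups did not overlap and its log2 fold change was -0.83 (SE 0.300, edgeR adjusted p = 0.194, and 0.143 with the split). *Sema3a* stood at 5.09 ± 0.868 CPM in libraries labelled mutant and 6.24 ± 3.35 CPM in wild type, with overlap (edgeR adjusted p = 0.802). Markers of stromal cells and osteoblasts, cell types in which class 3 semaphorins are also made, were examined. The 9 such genes summed to 803, 2299 and 3643 CPM in libraries 2, 3 and 5, against 955, 1003 and 2689 CPM in libraries 1, 4 and 6, with 0 of the 9 separating the genotypes. Libraries 5 and 6 had the highest stromal sums, and *Sema3d* was lowest in library 5 and highest in library 6. The part of stromal cells in the class 3 values was not tested. In bulk RNA, fewer cells of a type and less RNA per cell cannot be told apart, and this holds for each result here.

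*Sema3d*, *Sema3a*, *Sema3e* and *Sema3c* lie in this order on chromosome 5. Between *Sema3d* and *Sema3a* the gap is 0.536 Mb with 0 genes of the table inside, between *Sema3a* and *Sema3e* 0.423 Mb with 2, and between *Sema3e* and *Sema3c* 3.32 Mb with 5. Of these neighbours, *Sema3d* and *Sema3c* were lower without overlap, as were 17.1% of all genes tested. *Sema3a*, which lies between them, overlapped, and *Sema3e* was below the level tested. The part of position in these values was not tested.

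Among the remaining ligands, *Sema6d* had 13.03, 12.2 and 23.7 CPM in libraries 2, 3 and 5, labelled mutant, against 8.97, 9.81 and 11.4 CPM in wild-type libraries 1, 4 and 6. All libraries labelled mutant were higher, by the widest margin in library 5, and the log2 fold change was 0.70 (SE 0.297, edgeR adjusted p = 0.262, and 0.102 with the split). Without library 5 the log2 fold change was 0.33. *Sema6b*, a ligand of plexin A receptors, stood at 13.3 ± 1.45 CPM in libraries labelled mutant and 16.7 ± 3.07 CPM in wild type, with overlap (edgeR adjusted p = 0.411). *Sema7a*, a lipid-anchored semaphorin that binds plexin C1 and integrins, had 15.8, 45.1 and 72.6 CPM in libraries 2, 3 and 5, against 40.3, 36.0 and 112 CPM in libraries 1, 4 and 6. The genotypes overlapped (edgeR adjusted p = 0.766), and within each genotype the library with a second number in its name, 5 or 6, was the highest. *Sema5a*, which carries thrombospondin repeats, stood at 4.85 ± 1.84 CPM in libraries labelled mutant and 3.09 ± 2.03 CPM in wild type, with overlap.

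Of the neuropilins, *Nrp2* was lower in libraries labelled mutant and *Nrp1* overlapped. *Nrp2* (chromosome 1, 62703285 to 62818695) had 483, 784 and 887 CPM in libraries 2, 3 and 5, labelled mutant, against 1402, 1052 and 1664 CPM in wild-type libraries 1, 4 and 6. The groups did not overlap, and the mean was 52.3% of wild type. It fell in the fit with the split (log2 fold change -0.94, SE 0.217, edgeR adjusted p = 0.0452) and had -0.93 (SE 0.280, edgeR adjusted p = 0.144) with genotype alone, with adjusted p-values between 0.0157 and 0.358 over all alternatives. *Nrp1* had 148, 105 and 200.3 CPM in libraries 2, 3 and 5, against 139, 58.4 and 94.7 CPM in libraries 1, 4 and 6. Its groups overlapped through library 1, and its log2 fold change of 0.64 (SE 0.362) did not pass with either model (edgeR adjusted p = 0.401 and 0.327). Whether the 2 genes differ from each other in their response was not tested.

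*Plxnd1* (chromosome 6, 115954811 to 115995005) fell in the fit with the split and was close to the threshold there. It had 384, 609 and 627 CPM in libraries 2, 3 and 5, labelled mutant, against 898, 752.5 and 1350 CPM in wild-type libraries 1, 4 and 6. The groups did not overlap and the mean was 54.0% of wild type. The log2 fold change was -0.86 (SE 0.207, edgeR adjusted p = 0.0498) with the split and -0.89 (SE 0.289, edgeR adjusted p = 0.161) without it, and the adjusted p lay between 0.0309 and 0.388 over all alternatives. For *Nrp2* and *Plxnd1* the libraries stood in the order 6, 1, 4, 5, 3 and 2 from high to low. The summed osteoclast markers had the same order. It held for 2 of 26 members, or 7.69%, against 4.72% of all genes tested, or 644 genes. Only genes lower without overlap, 2331 of all genes tested and 7 members, can have it. For *Sema4d* the order was the same but for libraries 2 and 3. The part of the osteoclast marker level in these differences was not tested.

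The other plexins did not pass in either model. *Plxna2*, a receptor of class 6 semaphorins, had 25.3, 21.4 and 29.2 CPM in libraries 2, 3 and 5, labelled mutant, against 37.4, 31.1 and 41.0 CPM in libraries 1, 4 and 6. It was lower without overlap (log2 fold change -0.53, SE 0.164, edgeR adjusted p = 0.152, and 0.0547 with the split). *Plxna1*, the receptor of SEMA6D, had 422, 414 and 462 CPM in libraries 2, 3 and 5, against 388, 286 and 337 CPM in libraries 1, 4 and 6. It was higher without overlap, and the log2 fold change was 0.36 (SE 0.144, edgeR adjusted p = 0.232). Its exons share 10.7% of their length with an opposite-strand gene, *Gm26811*. *Plxnb2* was nearly level, with 750, 747 and 762.5 CPM in libraries 2, 3 and 5, against 822, 799 and 832 CPM in libraries 1, 4 and 6. The groups were separate, but the mean in libraries labelled mutant was 92.1% of wild type and the edgeR adjusted p was 0.646. *Plxna4*, a plexin that pairs with neuropilins for class 3 semaphorins, had 11.8, 32.9 and 51.5 CPM in libraries 2, 3 and 5, against 66.9, 48.0 and 116 CPM in libraries 1, 4 and 6. Library 5 lay above library 4, so the groups overlapped, and the log2 fold change of -1.26 (SE 0.558) had an edgeR adjusted p of 0.279, and 0.0648 with the split. *Plxnc1*, the SEMA7A receptor, had 259.5, 190 and 181 CPM in libraries 2, 3 and 5, against 199, 124 and 74.5 CPM in libraries 1, 4 and 6. It overlapped through library 1 (log2 fold change 0.67, SE 0.357, edgeR adjusted p = 0.370). *Plxna3* and *Plxnb3* stood between 4.72 and 13.9 CPM in all libraries and overlapped.

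**Figure D3:**
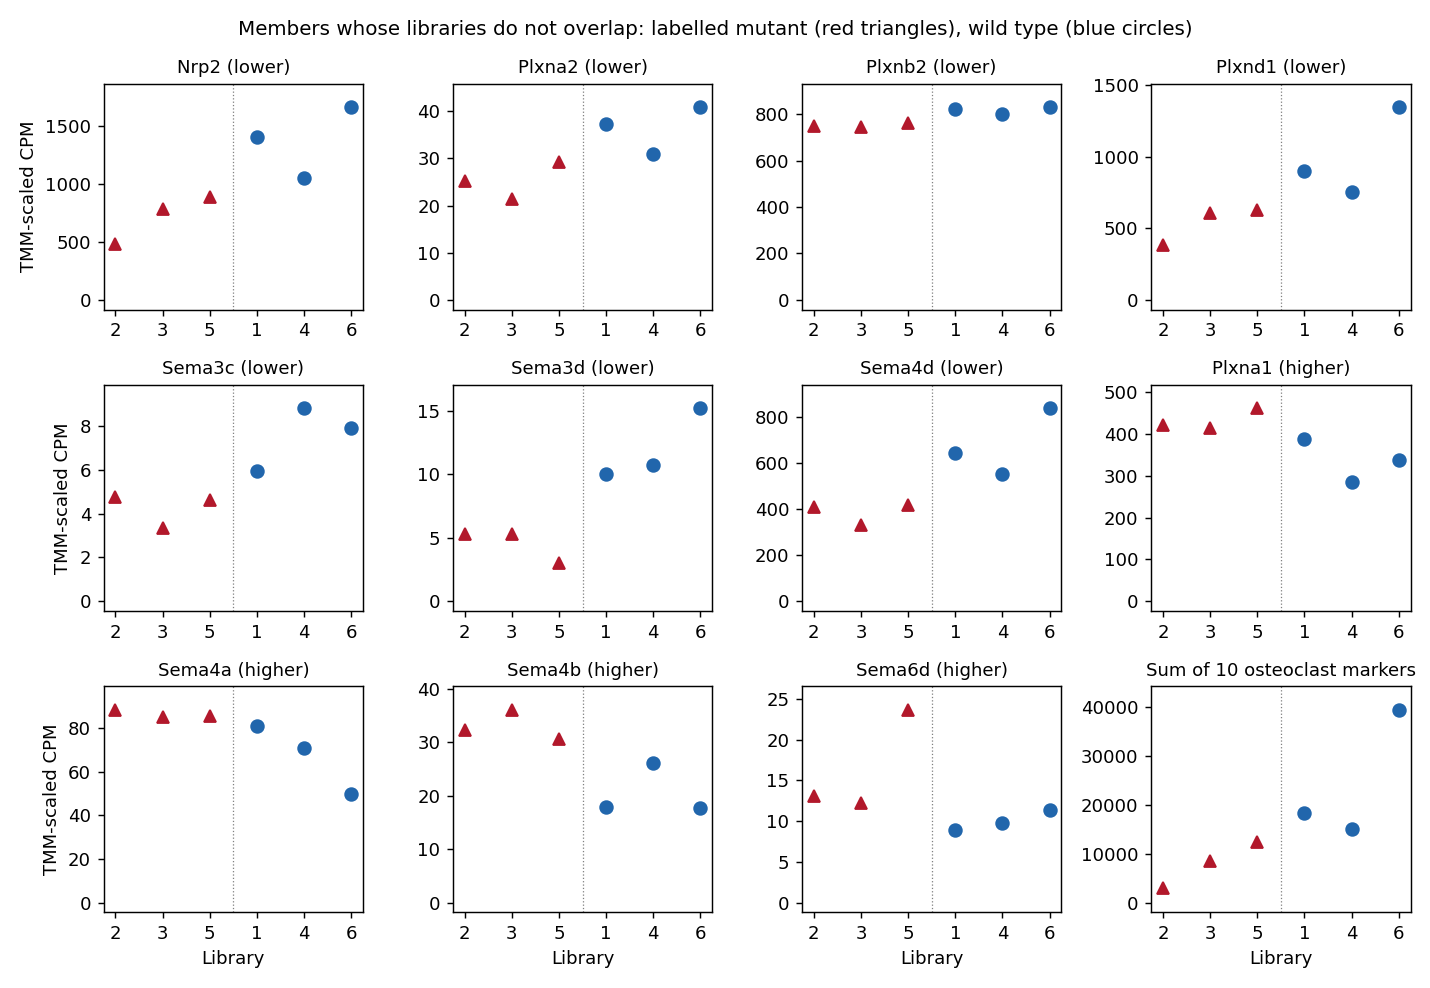
TMM-scaled CPM (linear axis) in each library of the 11 members whose genotypes did not overlap, with the sum of 10 osteoclast markers in the last panel; red triangles are libraries 2, 3 and 5, labelled mutant, and blue circles the wild-type libraries 1, 4 and 6. *Nrp2*, *Plxnd1* and the marker sum share the library order, with library 2 lowest and library 6 highest, whereas *Plxnb2* is nearly level.

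Windows before RefSeq transcription starts of the 4 genes that fell are shown because cytosines followed by guanine are the sites at which TET enzymes act. The sequences are RefSeq's (build GRCm38.p6), 250 bases before a start in that annotation, on the strand of the gene, with CG in capitals. These starts need not be those of GENCODE: the *Sema4d* window lies inside the gene as given above, and the *Nrp2* window ends at 62703316, past the gene start of 62703285. The bases that follow the start were found in a GENCODE transcript of the same gene for 30 of the 37 windows of members, including those shown for *Sema4d*, *Nrp2* and *Plxnd1* but not that of *Sema3d*, which ends 5′ of the gene as given above.
Sema4d, chr13:51756684-51756933, minus strand, 1 of 3 windows of this gene: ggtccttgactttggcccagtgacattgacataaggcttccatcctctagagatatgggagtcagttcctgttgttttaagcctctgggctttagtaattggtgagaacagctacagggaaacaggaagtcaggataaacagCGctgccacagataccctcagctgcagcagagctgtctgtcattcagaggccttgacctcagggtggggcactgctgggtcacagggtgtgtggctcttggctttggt
Nrp2, chr1:62703067-62703316, plus strand: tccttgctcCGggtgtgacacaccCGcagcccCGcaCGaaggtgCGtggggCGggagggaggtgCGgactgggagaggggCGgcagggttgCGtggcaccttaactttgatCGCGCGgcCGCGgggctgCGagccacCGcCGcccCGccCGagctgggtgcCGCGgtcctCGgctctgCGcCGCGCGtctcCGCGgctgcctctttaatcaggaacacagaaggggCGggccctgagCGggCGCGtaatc
Plxnd1, chr6:115995006-115995255, minus strand: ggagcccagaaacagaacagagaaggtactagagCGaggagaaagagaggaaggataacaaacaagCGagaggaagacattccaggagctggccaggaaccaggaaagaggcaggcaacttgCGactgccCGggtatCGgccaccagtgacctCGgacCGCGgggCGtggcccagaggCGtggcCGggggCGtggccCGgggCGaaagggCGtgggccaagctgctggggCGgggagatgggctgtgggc
Sema3d, chr5:12382916-12383165, plus strand: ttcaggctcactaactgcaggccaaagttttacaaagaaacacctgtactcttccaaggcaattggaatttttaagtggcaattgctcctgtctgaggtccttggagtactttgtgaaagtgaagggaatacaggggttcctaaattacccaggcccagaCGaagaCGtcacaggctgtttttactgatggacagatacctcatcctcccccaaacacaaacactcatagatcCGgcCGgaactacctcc

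The 4 windows differ widely. *Nrp2* has 32 CG sites, a number that 4.58% of all 32851 windows of this length reach, and *Plxnd1* has 16 (25.4% of windows have as many). *Sema3d* has 4 (62.2%) and *Sema4d* 1 (92.1%), and the other 2 windows of *Sema4d* have 2 each; the median over all windows was 6. Windows were found for 26 of the 31 members, with 37 windows in all. The letters of the AP-1 motif, TGANTCA, occurred in 3 of the 37 windows (6.75% of all windows), those of a PU.1 motif, GAGGAAG, in 11 (10.6% of all windows), and those of a MITF motif, CATGTG, in 1 (12.3% of all windows), on either strand and with overlaps allowed. *Plxnd1* holds 2 matches of GAGGAAG, and none of the 3 motifs occurs in the windows printed for *Sema4d*, *Nrp2* and *Sema3d*. Another *Sema4d* window, chr13:51748811-51749060, has 1 match of TGANTCA.

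Some low members differed across the column-name split (singled out after their values were seen). *Sema3f*, *Sema4g*, *Sema6a* and *Sema6c*, 4 of 26 or 15.4%, were higher in each of libraries 1 to 4 than in libraries 5 and 6, a share near the 14.4% of all genes tested. With *Plxnb1*, *Sema4c* and *Sema5a*, 7 of 26 or 26.9% were higher in each of libraries 2, 3 and 4 than in libraries 5 and 6, against 20.1% of all genes tested. *Plxnb1*, the SEMA4D receptor, had 16.95, 8.95 and 4.75 CPM in libraries 2, 3 and 5, labelled mutant, against 4.19, 40.1 and 1.76 CPM in wild-type libraries 1, 4 and 6. *Sema3f*, the ligand of neuropilin 2, had 6.86, 5.19 and 0.743 CPM in libraries 2, 3 and 5, against 2.91, 11.97 and 0.720 CPM in libraries 1, 4 and 6. *Sema4g* had 12.9, 1.93 and 0.297 CPM in libraries 2, 3 and 5, against 2.56, 11.6 and 0.880 CPM in libraries 1, 4 and 6. Library 2, labelled mutant, and library 4, wild type, were the highest pair for these 3 genes, and the genotypes overlapped. *Sema6a*, a membrane ligand of plexin A receptors, had 6.72, 1.73 and 0.594 CPM in libraries 2, 3 and 5, against 1.86, 4.25 and 0.400 CPM in libraries 1, 4 and 6, and *Sema6c* stood between 0.560 and 3.76 CPM in all libraries. The same libraries were high in *Gh*, in 6 neural and glial markers, with sums of 34.3, 17.9 and 6.46 CPM in libraries 2, 3 and 5 against 8.38, 43.1 and 9.44 CPM in libraries 1, 4 and 6, and in 6 endothelial markers, with sums of 83.5, 38.7 and 15.7 CPM against 21.1, 77.2 and 11.9 CPM. No marker of either list was at 0 in every library. The part of RNA from other tissue in these values was not tested. In libraries 5 and 6, with *Gh* at or near 0, the receptor *Plxnb1* had 64 and 22 counts. The log2 ratio of library 5, labelled mutant, over library 6, wild type, was 1.43 for *Plxnb1*. It was -1.002 for *Sema4d*, -1.11 for *Plxnd1* and -0.91 for *Nrp2*. Each of these ratios rests on 1 library of each genotype.

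**Figure D4:**
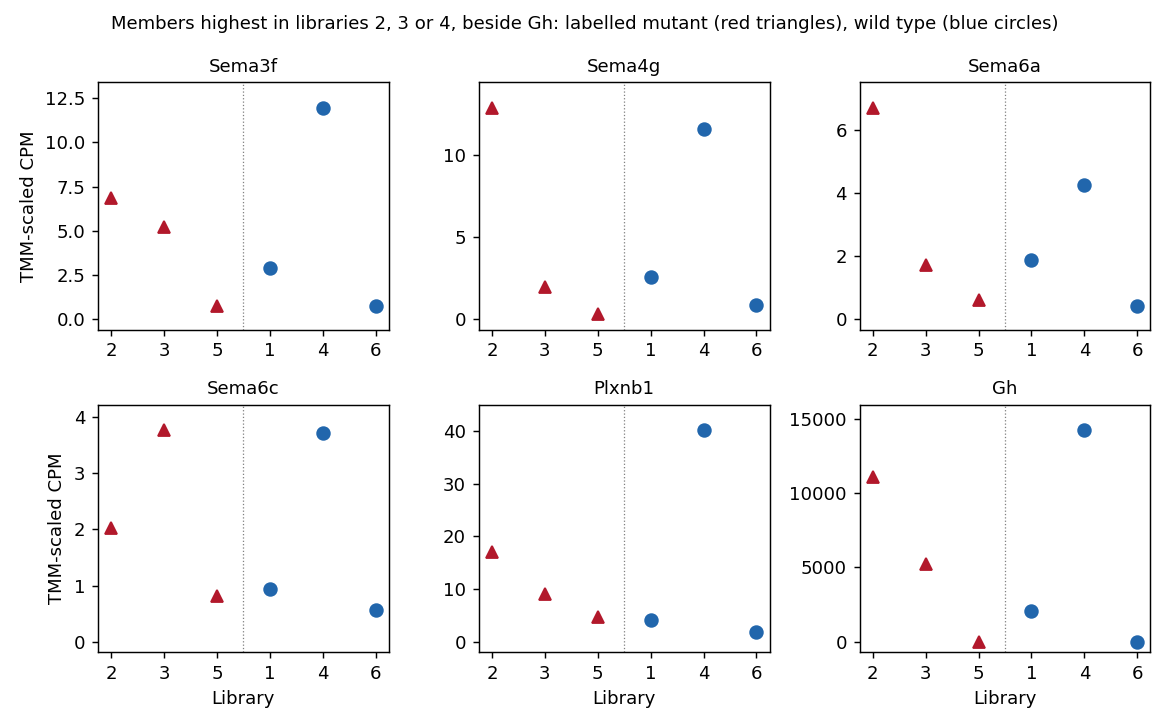
TMM-scaled CPM (linear axis) in each library of *Sema3f*, *Sema4g*, *Sema6a*, *Sema6c* and *Plxnb1*, with *Gh* in the last panel; red triangles are libraries labelled mutant and blue circles wild-type ones. Libraries 5 and 6 are low in each of these genes, and library 4 is high in each, with *Gh* at 14234 CPM there.

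The 5 semaphorins that did not reach the level tested were *Sema3b*, *Sema3e*, *Sema3g*, *Sema4f* and *Sema5b*. *Sema3b* had 5 to 13 counts per library, *Sema3e* 0 to 23, *Sema3g* 0 to 9, *Sema4f* 0 to 16 and *Sema5b* 0 to 14. *Sema3e*, a ligand gene of plexin D1, and *Sema5b* had no count in libraries 5 and 6. A count of 0 allows up to 3 counts, or 0.217 CPM in library 5 and 0.234 CPM in library 6, and this limit covers counting error only. *Plxnd1* was thus abundant in libraries in which *Sema3e* was not detected at this depth. Other semaphorins named above as acting through plexin D1 were detected there. In libraries 5 and 6, *Sema4a* had 85.6 and 49.5 CPM and *Sema3c* had 4.61 and 7.92 CPM.

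Other genes of the pathway were taken from 4 lists. Of 17 tested partners and other receptors, 0 passed with genotype alone in edgeR, where 0.0733% of all genes tested passed. At an unadjusted p under 0.05 there were 4 (20.0% of all genes), DESeq2 called 3 (10.5% of all genes), and with the split 1 rose and 4 fell (3.39% and 6.15% of all genes). The median log2 fold change was -0.13, beside -0.03 over all genes tested. *Trem2*, the partner of plexin A1, rose to 403 ± 74.4 CPM in libraries labelled mutant, against 194 ± 61.3 CPM in wild type (edgeR adjusted p = 0.105, and 0.0255 with the split). *Mst1r*, a receptor kinase that associates with plexin B1, fell to 67.8 ± 42.0 CPM in libraries labelled mutant, against 255 ± 148 CPM in wild type (edgeR adjusted p = 0.169, and 0.0393 with the split). The integrin gene *Itgav* fell with the split, to 254 ± 117 CPM in libraries labelled mutant, against 555 ± 214 CPM in wild type (edgeR adjusted p = 0.209, and 0.0410 with the split). *Itgb3*, which is also among the 10 osteoclast markers, fell with the split to 124 ± 70.4 CPM in libraries labelled mutant, against 298 ± 170 CPM in wild type, though its libraries overlapped (edgeR adjusted p = 0.273, and 0.0378 with the split). With genotype alone the log2 fold change was -1.91 for *Mst1r* and -1.30 without library 6, and for *Itgb3* it was -1.26 and -0.66 without that library. Of 12 tested neuropilin ligands and processing enzymes, 0 passed in any of these fits, and 1 had an unadjusted p under 0.05 in edgeR, against the same shares of all genes (median -0.21). The protease gene *Mmp14* stood at 334 ± 199 CPM in libraries labelled mutant and 793 ± 501 CPM in wild type, with overlap; its log2 fold change was -1.25, and -0.58 without library 6. *Adam17* stood at 261 ± 37.1 CPM in libraries labelled mutant and 202 ± 46.9 CPM in wild type.

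Of 30 tested small GTPases and their regulators, 0 passed with genotype alone in edgeR. At an unadjusted p under 0.05 there were 9 (20.0% of all genes tested), DESeq2 called 6 (10.5% of all genes), and with the split 2 rose and 3 fell (3.39% and 6.15% of all genes; median -0.03). *Tiam1*, an activator of RAC1, had 44.3, 37.4 and 35.1 CPM in libraries 2, 3 and 5, labelled mutant, against 68.8, 75.3 and 80.8 CPM in wild-type libraries 1, 4 and 6. The groups did not overlap (log2 fold change -0.95, SE 0.125, edgeR adjusted p = 0.0530, and 0.0165 with the split). *Rac2*, a GTPase of blood cells, fell with the split, to 323 ± 60.3 CPM in libraries labelled mutant, against 590 ± 173 CPM in wild type (edgeR adjusted p = 0.133, and 0.0248 with the split). *Rhob* rose with the split, to 149 ± 22.9 CPM in libraries labelled mutant, against 95.8 ± 11.8 CPM in wild type. It was close to the threshold there (edgeR adjusted p = 0.103, and 0.049 with the split). *Sh3bp1*, which encodes a GTPase-activating protein, also rose with the split, to 46.1 ± 11.8 against 24.7 ± 6.70 CPM (edgeR adjusted p = 0.141, and 0.0222 with the split). Of 23 tested cytoskeletal effectors and kinases, 0 passed with genotype alone in edgeR. At an unadjusted p under 0.05 there were 5 (20.0% of all genes tested), DESeq2 called 0 (10.5% of all genes), and 1 fell with the split (6.15% of all genes; median 0.03). This was *Ssh1*, a cofilin phosphatase gene, at 39.1 ± 3.77 CPM in libraries labelled mutant and 56.0 ± 9.84 CPM in wild type (edgeR adjusted p = 0.140, and 0.0390 with the split).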

How the data were processed

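RNA-seq counts of 6 mouse osteoclast libraries, 3 per genotype, were analysed. Per the labels' protocols, stranded mRNA libraries gave single-end reads of 75 bases. The submitters' processing notes name mm10 and the tools SAMtools 0.1.19, Bowtie2 2.2.3 and TopHat2 2.0.13. The sources used here give neither the counting program nor its strand setting. The authors deposited raw counts per Ensembl gene. Of 23264 rows, 60 repeated a gene with the same counts and were dropped. All 31 members had the same start and end in GENCODE M21, from which exon lengths were taken. Column names give the genotype but no replicate number or sex, so columns were assigned to genotypes only.

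Genes with at least 1 CPM in at least 3 libraries (13646) were scaled by TMM and tested with the quasi-likelihood test of edgeR 4.0.16 (R 4.3.3), fitting genotype alone, with Benjamini-Hochberg adjustment over these genes and a threshold of 0.05. All CPM were scaled by TMM, and a standard error is the absolute log2 fold change divided by √F. Alternatives were the column-name split as a term, DESeq2 1.42.0, other scalings and filters, and leaving out libraries. No pair of libraries looked like 1 library deposited again, since chi-square over its degrees of freedom was at least 28.1. The fits were tested on simulated data, drawn separately for each model with the spread between libraries that it estimated. Of genes changed 2-fold, 27% were recovered with genotype alone (13191 genes) and 71% with the split (13373 genes). Unchanged genes made up 10 of 120 and 16 of 187 calls. These rates do not compare the models on the same data. Changed genes were drawn above a minimum mean count, so the rates do not cover low members. The biological coefficient of variation common to all genes came to 40.1% for genotype alone and 23.2% with the split. Given in full are members whose genotypes do not overlap, the 8 with the highest level per kb and *Sema4d*; of each pathway list, up to 4 members past the threshold in either edgeR model, by fold, otherwise the 2 with the highest CPM. Members, lists and the column-name split were chosen with earlier results of these data known.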

Additional observations from a re-analysis of the deposited data

How the results depend on the processing

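The count of members past the threshold was 0 with genotype alone in edgeR and stayed 0 with other size factors, library totals alone (chosen after seeing the data), other filters, libraries 1 to 4 alone, and with each library left out in turn; it was 4 with the column-name split and 5 in DESeq2. Over all genes tested, 10 passed, against 92 with library totals alone, 81 with no filter, 1431 in DESeq2, 1301 with the split, 1 in libraries 1 to 4 alone and 0 to 3 without 1 library. Partners and other receptors gave 3 calls in DESeq2 and 5 with the split. Small GTPases gave 1 with library totals alone and 1 with no filter, 6 in DESeq2 and 5 with the split, and cytoskeletal effectors gave 1 with the split. The interaction gave 5 calls over all genes with no filter. *Tet2* passed in DESeq2 (-0.54, adjusted p = 0.00665) and with the split (-0.57, edgeR adjusted p = 0.0399). Of the 26 members tested, 19 kept the direction of their log2 fold change in every fit that tested them. Near 0, *Sema4g* turned to -0.0281 with library totals alone, -0.0041 with no filter and -0.27 with the split. Leaving out 1 library moved log2 fold changes over -2.14 to 1.62 for *Sema4g*, -1.13 to 1.84 for *Plxnb1*, -0.56 to 0.26 for *Sema3a*, -0.82 to 1.30 for *Sema3f*, -0.87 to 1.5 for *Sema6a*, -0.10 to 0.72 for *Sema6c* (without library 1, 5 or 6 only, since it left the tested set without the others) and -1.03 to 0.25 for *Sema7a*. For the 4 genes that fell with the split it ranged from -0.90 to -0.62 (*Sema4d*), -1.52 to -1.18 (*Sema3d*), -1.10 to -0.70 (*Nrp2*) and -1.02 to -0.59 (*Plxnd1*); the cause of the changes in calls was not tested. With the longest transcript, mean levels per kb were 121 for *Plxnb2*, 155.5 for *Nrp2*, 119 for *Sema4d* and 23.9 for *Sema4a*. No paired analysis was possible because the columns carry no replicate numbers, and no fit with sex was run because they carry no sex. Depth limits the members under about 10 CPM, for which a library holds few counts.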
